A study of Mus musculus with 30 samples.

Results

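The 10 genes studied here, all of the Bcl2 family, help to decide whether a cell keeps or opens its outer mitochondrial membrane. They were followed through 30 RNA-seq libraries of 2 mouse colorectal carcinoma models, CT-26 and Colon 26. The members were chosen by name as the best known genes of the family: the anti-apoptotic Bcl2, Bcl2l1 and Mcl1, the effectors Bax and Bak1, and the BH3-only genes Bcl2l11, Bbc3, Pmaip1, Bid and Bad. The choice was made with earlier results of these data known. The members are 10 of the 53431 genes in the count table. All 10 passed the filter on low counts in each of the 10 comparisons made.

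Each model gave 3 libraries of cultured cells and 4 tumors at each of 3 sizes, 100, 400 and 800 mm3, which makes 8 groups. Both lines derive from BALB/c mice, and tumors were raised by injecting cells under the skin of the right flank, with female BALB/c mice as hosts. The hosts have an intact immune system, so a tumor library holds RNA of tumor cells and of host cells. The measured volumes ran from 103 to 146 mm3, 400.5 to 465 mm3 and 810.4 to 939 mm3 in CT-26, and from 103 to 125 mm3, 402 to 467 mm3 and 808 to 963 mm3 in Colon 26. The protocol common to the series describes dosing with antibodies to CTLA-4, PD-1 and PD-L1, but no label gives a library an antibody, and the tumors were read as a size series without a treatment contrast. Mouse age is not stated. Each line was bought as a cell line, and the 3 cultures of a line may be flasks of the same stock, so p-values measure only the spread between these samples.

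Proteins of this family act at the mitochondrion. Anti-apoptotic members hold the effectors in check, BH3-only members release or activate them when the cell is stressed, and active effectors form pores that let cytochrome c out, after which the apoptosome starts the caspases. Several of the genes, among them Bbc3, Pmaip1 and Bax, are known targets of the transcription factor p53. Colorectal tumors are known to lean on Bcl2l1 and Mcl1 for survival.

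Libraries held between 21384697 and 39722554 estimated counts. The 3 Colon 26 cultures, at 36042918 to 39722554, were deeper than the 3 CT-26 cultures, at 21384697 to 27856353, and the library numbers in the labels run separately for all tumors, for CT-26 cultures and for Colon 26 cultures. Whatever else set these 3 sets of libraries apart cannot be told apart from line and growth. Levels are given as CPM, counts scaled to one common library size after correction by trimmed means (TMM), and levels of different genes are compared only as FPKM, the deposited fragments per kilobase of transcript scaled to sequencing depth. A gene was past the test at an adjusted p of at most 0.1 in edgeR's quasi-likelihood test, and DE when its log2 fold change was also at least 1 in size. Of 5 epithelial markers, Epcam was at or under 1.14 CPM in every library and at 0 in every culture. Krt18 was at 15.7 to 16.1 CPM in CT-26 cultures and at or under 0.0732 CPM in Colon 26 cultures, so the epithelial markers were all but absent from Colon 26 cultures.

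Among the 10 members, Mcl1, Bax and Bcl2l1 led in FPKM in every group and Bcl2 was near the bottom. Other genes of the family were not ranked. Mcl1, a short-lived protector, had FPKM of 83.2 to 112 in the cultures and 114 to 153 in the tumors. Bax, which forms the pore, had FPKM of 132 to 189 in the cultures and 78.6 to 145 in the tumors. Bax was thus above Mcl1 in FPKM in all 6 cultures, and in all tumors but one this order was turned round. The exception was the first 400 mm3 tumor of Colon 26, with 145 FPKM of Bax and 126 of Mcl1. In that tumor 5 skeletal muscle markers summed to 2445 CPM, the most of any library. The order of Bax and Mcl1 depends on the lengths used. Annotated exon lengths are 1576 bases for Bax and 3418 bases for Mcl1. With counts divided by them, Mcl1 led Bax in that tumor and in all CT-26 cultures. Bax still led Mcl1 in the Colon 26 cultures. Bcl2l1, which encodes Bcl-xL, ranked 3 in FPKM in all 30 libraries, and Bcl2 lay between 3.62 and 7.01 FPKM, ranked 8 to 10 of 10.

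**Figure D1:**
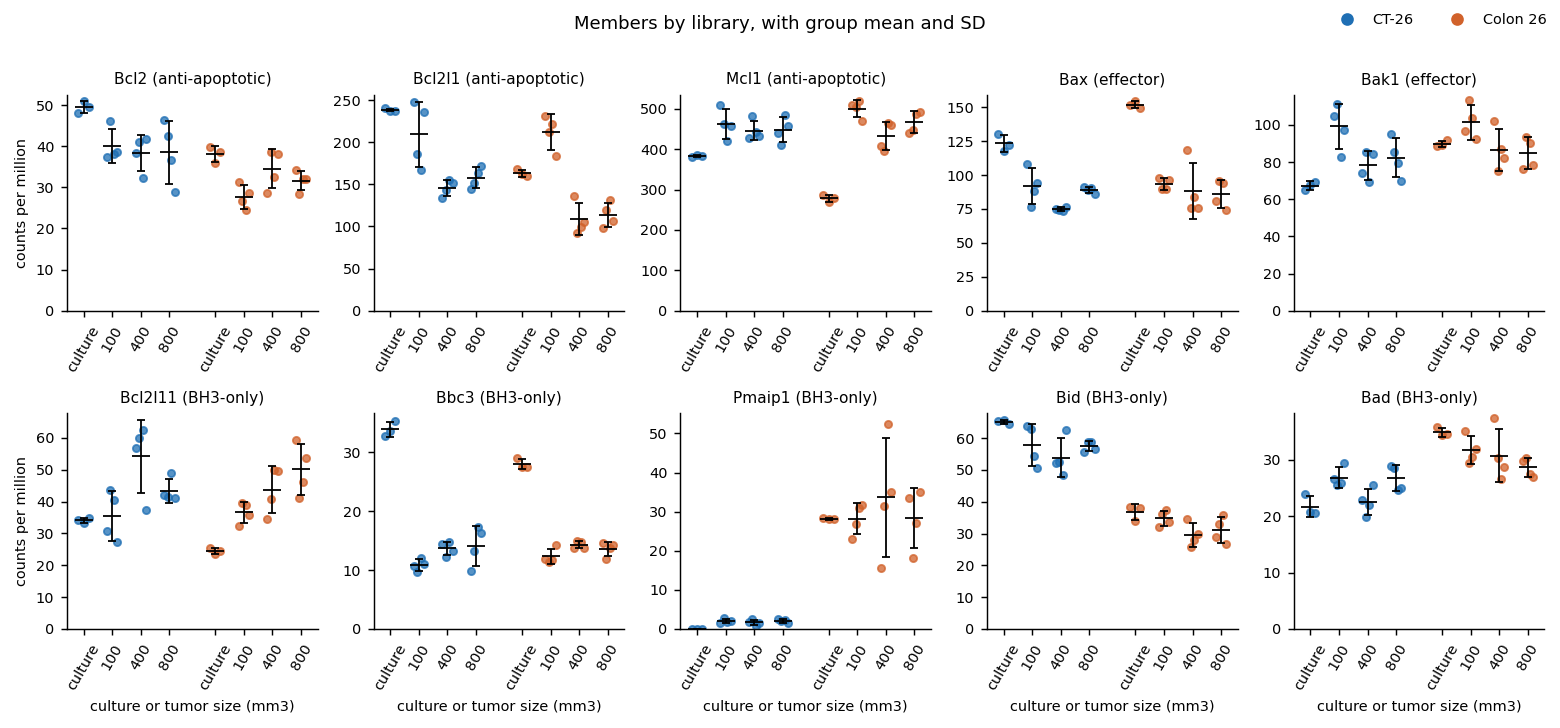
CPM of each member (y axis, from 0) in each library (points) by culture or tumor size (x axis), with group mean and SD in black, 3 cultures and 4 tumors per group. Pmaip1 is at the bottom in all 15 CT-26 libraries, at or under 2.71 CPM, and at 15.6 CPM or more in all 15 Colon 26 libraries, while Bbc3 is highest in the 6 cultures.

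The first comparison asked how the lines differ in culture, where no host tissue is present. Pmaip1, which encodes the BH3-only protein Noxa, was the member that set them apart. It had 28.4, 28.0 and 28.1 CPM in the Colon 26 cultures, and 0.0932, 0.0371 and 0.0418 CPM in the CT-26 cultures, where it was carried by 1 or 2 counts per library. The groups lay far from each other, and since all CT-26 cultures held at most 3 counts the difference is a bound: Pmaip1 was at least 225-fold higher in Colon 26 (edgeR adjusted p = 3.2e-17, floor of 3 counts per library). It was the one DE member in culture, where 22.9% of all 14334 genes tested were DE.

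The other 9 members also differed in culture, each by less than 2-fold, and their ranges did not overlap. All 10 members were past the test, 4 higher and 6 lower in Colon 26, where 82.6% of all genes tested were past it (42.2% higher and 40.4% lower) and 79.6% of genes with a mean count of at least 10 did not overlap. The 3 protectors were all lower in Colon 26. Bcl2l1 had 168, 162 and 160.1 CPM in Colon 26 and 240.1, 237 and 237 CPM in CT-26, a log2 fold change of -0.49 ± 0.03 (SE). Mcl1 was lower by a log2 fold change of -0.41 ± 0.03, and Bcl2 by -0.33 ± 0.04. Both effectors were higher in Colon 26, Bax with 151, 155 and 149.7 CPM against 130.1, 118 and 122 CPM (log2 fold change 0.35 ± 0.04) and Bak1 with a log2 fold change of 0.47 ± 0.03. So in culture these 3 protectors stood lower and Bax and Bak1 higher in Colon 26. The median log2 fold change in size was 0.447 over the 10 members and 0.467 over all genes tested.

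BH3-only members went both ways in culture. Bid, which caspase-8 cuts to link death receptors to the mitochondrion, had 38.4, 34.0 and 37.9 CPM in Colon 26 and 65.3, 65.7 and 64.4 CPM in CT-26, a log2 fold change of -0.77 ± 0.04. Every CT-26 culture was well above every Colon 26 culture. Bad, which survival kinases keep inactive, was the reverse, with 35.9, 34.4 and 34.5 CPM in Colon 26 against 23.9, 20.8 and 20.5 CPM (log2 fold change 0.74 ± 0.06). Bcl2l11, which encodes Bim, was lower in Colon 26 by a log2 fold change of -0.43 ± 0.05, and Bbc3, which encodes Puma, by -0.22 ± 0.04. Adjusted p from edgeR was at most 0.00023 for all 9 members.

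In tumors the same question was put at each size. At 100 mm3 4 members were past the test (2 higher and 2 lower in Colon 26, with 56.5% of all genes past it, 26.4% higher and 30.1% lower), 4 at 400 mm3 (2 and 2, with 52.2%, 25.9% and 26.3%) and 4 at 800 mm3 (1 and 3, with 59.4%, 28.3% and 31%), and Pmaip1 was the one DE member at every size, where 13.2%, 14.3% and 14.1% of genes were DE. Pmaip1 and Bid passed at all 3 sizes, each in its direction in culture.

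Pmaip1 stayed apart in the tumors. In CT-26 it had 1.56, 2.71, 1.72 and 2.13 CPM at 100 mm3, 1.89, 2.46, 0.806 and 1.497 CPM at 400 mm3 and 2.54, 1.999, 2.23 and 1.47 CPM at 800 mm3. In Colon 26 the values were 23.1, 26.9, 30.9 and 31.7 CPM at 100 mm3, 15.6, 31.5, 52.5 and 35.1 CPM at 400 mm3 and 33.6, 18.2, 27.1 and 35.0 CPM at 800 mm3. The lowest Colon 26 tumor was above the highest CT-26 tumor, and the spread within Colon 26 was widest at 400 mm3. The lowest value there, 15.6 CPM, came from the tumor with 2445 CPM of skeletal muscle markers. The highest, 52.5 CPM, came from a tumor with 7.26 CPM of them. The log2 fold change was 3.77 ± 0.19 at 100 mm3, 4.33 ± 0.44 at 400 mm3 and 3.79 ± 0.24 at 800 mm3, with edgeR adjusted p of 1.8e-06, 9.6e-05 and 1.3e-06.

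Bid was lower in Colon 26 tumors of every size. At 100 mm3 it had 32.0, 36.1, 37.4 and 33.7 CPM in Colon 26 and 63.8, 63.0, 54.3 and 50.5 CPM in CT-26, and at 800 mm3 28.8, 33.0, 35.9 and 26.7 CPM against 55.7, 58.9, 58.9 and 56.5 CPM. No Colon 26 tumor reached a CT-26 tumor of its size, and of genes with a mean count of at least 10 the share without overlap was 47.7% at 100 mm3, 43.1% at 400 mm3 and 48.3% at 800 mm3. The log2 fold changes of Bid were -0.74 ± 0.09, -0.86 ± 0.11 and -0.89 ± 0.09 at 100, 400 and 800 mm3 (edgeR adjusted p of 0.00017, 0.00031 and 2.3e-05). Exons of Bid share 17.7% of their length with Bcl2l13 on the other strand, and whether counting used strand is not given in the sources used here. Bcl2l13 itself had model differences of 0.04 in culture and -0.26, -0.33 and -0.36 (log2) at 100, 400 and 800 mm3.

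The remaining calls between models were small. Bad had a log2 fold change of 0.23 ± 0.08 at 100 mm3 (edgeR adjusted p = 0.035) and 0.45 ± 0.12 at 400 mm3 (0.015), but 0.09 ± 0.08 at 800 mm3 (0.34), and 20.5% of its exon length lies opposite Gpr137. Bcl2 was lower in Colon 26 at 100 mm3, with 31.3, 26.7, 24.4 and 28.6 CPM against 37.3, 46.2, 38.2 and 38.7 CPM (log2 fold change -0.54 ± 0.10, edgeR adjusted p = 0.0018). At 400 mm3 Bcl2 did not pass, with -0.15 ± 0.12, and at 800 mm3 it passed narrowly, with -0.29 ± 0.13 (0.086). That last call was lost in DESeq2 (adjusted p = 0.11) and at a threshold of 0.05. It was also lost without CT-26 replicate 1, 2 or 3 or Colon 26 replicate 2, 3 or 4. In those fits edgeR's adjusted p ran from 0.106 to 0.244. Members past the test as lower also fell from 3 to 2 with RLE scaling, library size alone, no filter, thinned counts and limma. Bcl2l1 showed -0.43 ± 0.12 at 400 mm3 (0.017) and -0.47 ± 0.09 at 800 mm3 (0.0019), but 0.01 ± 0.13 at 100 mm3 (0.95).

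With each size fitted on its own libraries, Mcl1, Bax, Bak1, Bcl2l11 and Bbc3 passed the test between models at no tumor size. Their log2 fold changes in tumors lay between -0.31 and 0.24, with SE of 0.07 to 0.18. All 5 had passed it in culture, where their log2 fold changes were 0.22 to 0.47 in size, with SE of 0.03 to 0.05. Other settings let more members pass in tumors. With all 30 libraries in one fit, 6 members in place of 4 passed at 400 mm3, 3 higher and 3 lower. In that fit 9990 of 17139 genes passed, in place of 7963 of 15241. With scaling by library size alone, 5 members passed at 100 mm3, with 8755 of 15406 genes in place of 8710.

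**Figure D2:**
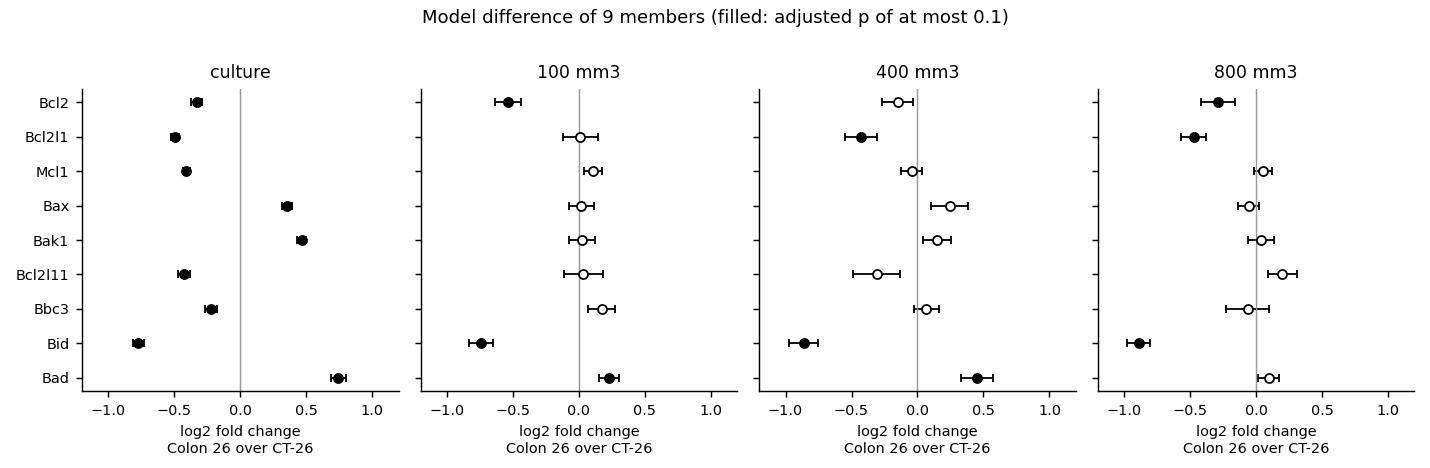
Log2 fold change of Colon 26 over CT-26 (x axis) for 9 members (y axis) in culture and at 3 tumor sizes, with SE as bars and filled points for an adjusted p of at most 0.1. Pmaip1, at 3.77 to 4.33 in tumors, is left out for scale, and Bid stays between -0.74 and -0.89 in all 4 panels while Bax, Bak1 and Mcl1 are filled in culture alone.

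The step from culture to a 100 mm3 tumor was taken in both models, and Bbc3 fell in both. In CT-26 it had 32.8, 33.7 and 35.4 CPM in culture and 10.8, 9.68, 12.01 and 11.02 CPM in 100 mm3 tumors (log2 fold change -1.64 ± 0.08, edgeR adjusted p = 1.65e-06). In Colon 26 it had 29.1, 27.6 and 27.6 CPM in culture and 11.9, 11.4, 11.7 and 14.3 CPM in tumors (-1.19 ± 0.08, 1.5e-06). Every tumor was below every culture of its line. Of genes with a mean count of at least 10, 72.3% did not overlap between the 2 groups in CT-26 and 75.3% in Colon 26. Bbc3 lies at chr7:16308393-16318205 (GRCm38, plus strand).

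From culture to tumor 7 members were past the test in CT-26 (4 up, 3 down, with 75.5% of all genes past it, 40.8% up and 34.7% down) and 8 in Colon 26 (4 up, 4 down, with 78.9%, 42.6% and 36.3%), and 2 and 1 were DE, with 32.2% and 26.9% of all genes DE. Host cell markers moved with this step. The 5 leukocyte markers summed to 2.12 to 2.51 CPM in CT-26 cultures and 597 to 1079 CPM in 100 mm3 tumors, and to 0.244 to 0.464 and 687 to 1019.8 CPM in Colon 26, with 3 of the 5 at the floor in Colon 26 cultures. Macrophage markers went from 60.6 to 67.6 CPM to 849 to 1174 CPM in CT-26 and from 3.76 to 4.74 CPM to 1059 to 1226 CPM in Colon 26, fibroblast markers reached 839.7 to 1602 and 1427 to 1942 CPM (65.8 to 69.5 and 106 to 113 CPM in cultures), and endothelial markers 58.7 to 195 and 105 to 143 CPM. T cell markers, all 5 at the floor in cultures, summed to 8.24 to 44.3 CPM in CT-26 and 3.68 to 17.9 CPM in Colon 26 tumors. The part of host cells in the members' changes was not tested, and in these bulk libraries fewer cells of a type and less RNA per cell cannot be told apart.

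Among the protectors, Mcl1 rose in both models. In Colon 26 it went from 287, 269.9 and 278 CPM to 509, 503, 518 and 470.3 CPM (log2 fold change 0.85 ± 0.04, edgeR adjusted p = 2.2e-07). In CT-26 it went from 381, 385 and 383 CPM to 510.3, 461, 419.5 and 457 CPM (0.28 ± 0.07, 0.0074). Tumors lay above cultures in both models, by more in Colon 26: the test of the difference gave 0.52 ± 0.08 (0.00011). Bcl2l1 rose in Colon 26 from 168, 162 and 160.1 CPM to 231, 212, 222 and 183 CPM (0.38 ± 0.07, 0.0011), while in CT-26 its 237 to 240.1 CPM in culture and 248, 187, 167 and 236 CPM in tumors overlapped (-0.18 ± 0.13, 0.23). Here too the models differed, by 0.51 ± 0.16 (0.017). Bcl2 fell in both, by a log2 fold change of -0.30 ± 0.09 in CT-26 and -0.45 ± 0.08 in Colon 26, and the difference of the 2 changes did not pass (-0.21 ± 0.13, 0.225).

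The effectors moved apart. Bax fell from 118 to 130.1 CPM to 108, 76.6, 88.0 and 93.9 CPM in CT-26 (log2 fold change -0.42 ± 0.10, edgeR adjusted p = 0.005) and from 149.7 to 155 CPM to 97.7, 90.0, 89.5 and 96.3 CPM in Colon 26 (-0.70 ± 0.04, 6.0e-07). Bak1 rose in CT-26 from 64.8, 67.8 and 69.3 CPM to 105, 111, 83.0 and 97.5 CPM (0.57 ± 0.10, 0.0014), and by 0.18 ± 0.07 in Colon 26 (0.033), a call lost without Colon 26 culture replicate 1 (0.11). Exons of Bak1 lie in part opposite Ggnbp1. Both changes differed between models, by -0.33 ± 0.11 for Bax (0.032) and -0.44 ± 0.13 for Bak1 (0.014). After the step, levels of both effectors in the 2 models overlapped.

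Of the BH3-only members, Pmaip1 showed the sharpest contrast between models. In CT-26 it went from 1 or 2 counts per culture to 1.56 to 2.71 CPM, which is at least 16.2-fold higher. In Colon 26 its 28.0 to 28.4 CPM in culture sat within the 23.1 to 31.7 CPM of the tumors (log2 fold change -0.00 ± 0.10, edgeR adjusted p = 0.99). The test of the difference passed (adjusted p = 4.3e-07), though with CT-26 cultures at the floor its fitted size is no bound. Bcl2l11 rose in Colon 26 from 25.3, 23.5 and 24.5 CPM to 32.4, 39.5, 39.0 and 35.8 CPM (0.59 ± 0.07, 6.7e-05). In CT-26 its 33.3 to 34.8 CPM in culture fell inside the 27.2 to 43.7 CPM of the tumors (0.07 ± 0.17, 0.72).

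Bad was past the test in opposite directions, with log2 fold changes of 0.31 ± 0.09 in CT-26 (edgeR adjusted p = 0.013) and -0.14 ± 0.06 in Colon 26 (0.073), and the changes differed by -0.50 ± 0.11 (0.0017). The call in Colon 26 was lost in DESeq2 (0.11) and without any one of 6 of the 7 libraries: tumor replicate 2, 3 or 4 or any culture, with edgeR's adjusted p from 0.113 to 0.195. Bid did not pass in either model (-0.16 ± 0.09 in CT-26 and -0.08 ± 0.06 in Colon 26). Over the members, 8 of 10 changes differed between models, 4 in each direction, where 51% of all 16501 genes tested did so (22.7% higher and 28.4% lower), and 1 was DE, where 17.6% were. The one of Bcl2l11, 0.47 ± 0.20 (0.07), was lost without CT-26 culture replicate 1 or 3 or any Colon 26 culture, where it ran from 0.10 to 0.14, and Bbc3 fell less in Colon 26, by 0.40 ± 0.12 (0.012).

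**Figure D3:**
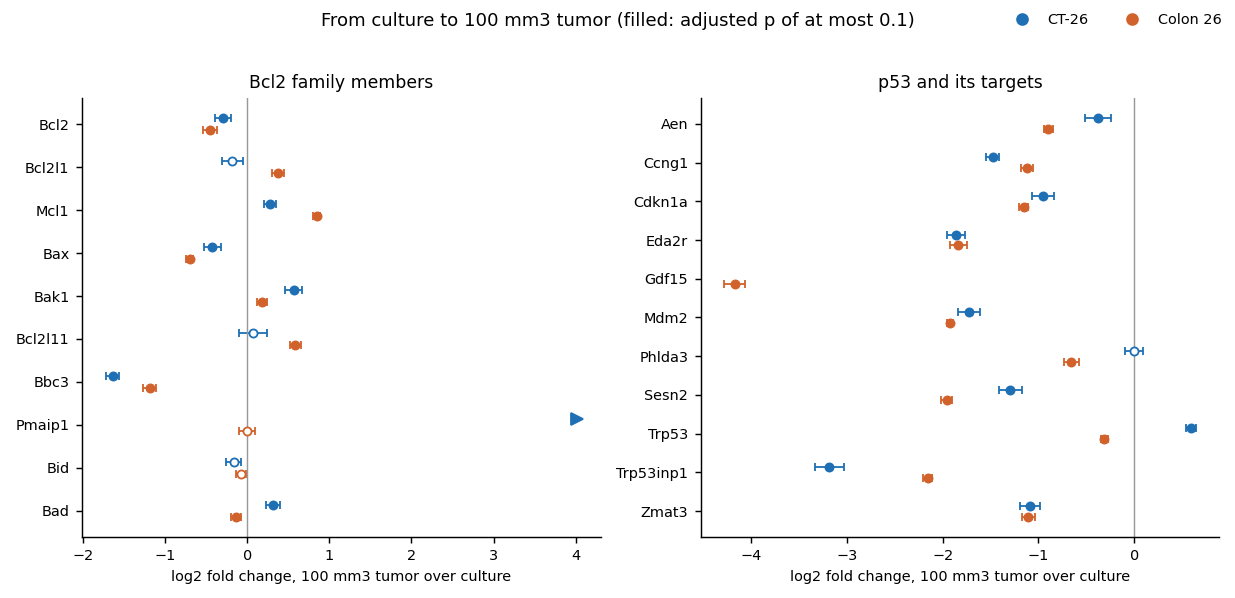
Log2 fold change of 100 mm3 tumors over culture (x axis) in CT-26 and Colon 26 for the 10 members (left) and the tested genes of the p53 list (right), with SE as bars and filled points for an adjusted p of at most 0.1. The arrowhead is the lower bound of Pmaip1 in CT-26 (4.02), and most p53 targets lie below -1 in both models beside Bbc3 at -1.64 and -1.19.

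Since Bbc3, Pmaip1 and Bax are p53 targets, a list of p53 and 11 of its other known targets was read beside them. From culture to 100 mm3 tumors 8 of the 10 tested genes fell and 1 rose in CT-26, 6 of them DE, with a list median of -1.19 (log2) against 0.06 over all genes. In Colon 26 all 11 tested genes fell, 8 of them DE, with a median of -1.15 against 0.05. Trp53inp1, a stress protein induced by p53, fell from 77.7 to 77.96 CPM to 6.37 to 9.99 CPM in CT-26 (-3.19 ± 0.15, edgeR adjusted p = 1.2e-06) and with a log2 fold change of -2.16 ± 0.05 in Colon 26.

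Mdm2, which marks p53 for destruction, fell from 366 to 373 CPM to 96.9 to 136 CPM in CT-26 (log2 fold change -1.73 ± 0.11) and from 282 to 290.3 CPM to 72.5 to 78.7 CPM in Colon 26 (-1.92 ± 0.03). In both models every tumor was far below every culture. Eda2r, a receptor of the tumor necrosis factor family, fell with a log2 fold change of -1.86 ± 0.09 in CT-26. Sesn2, a stress protein, fell with -1.96 ± 0.06 in Colon 26, Ccng1, a cyclin, with -1.48 ± 0.07 in CT-26, and Gdf15, a stress cytokine, with -4.17 ± 0.11 in Colon 26.

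Trp53 itself, given as the head of the list, went the other way in CT-26, from 79.5 to 83.2 CPM to 118 to 124 CPM (log2 fold change 0.60 ± 0.05), and fell in Colon 26 from 146 to 151 CPM to 115 to 124 CPM (-0.31 ± 0.04). The change differed between models (-0.96 ± 0.05, edgeR adjusted p = 2.1e-08). In culture 8 of 11 tested genes of the list were higher and 3 lower in Colon 26, and 1 was DE: Gdf15, with 52.9 to 54.4 CPM in Colon 26 and at most 3 counts in each CT-26 culture, was at least 427-fold higher. Among the members Pmaip1 alone shared that pattern of a gene at the floor in CT-26 cultures.

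The bases before the transcription start of these genes were searched for the p53 decamer, the unit of which a p53 response element holds a pair, with no mismatch allowed. The decamer reads alike on both strands. Upstream windows of 250 bases came from RefSeq (GRCm38.p6) for 9 of the 10 members, without Pmaip1, and for 9 genes of the p53 list. Of 32851 windows of that length 7.13% held a decamer and 0.259% held 2. Bax was the only one of these 9 members with a match, and 5 of the 9 list genes had one. A window of Cdkn1a held 2, and another of its windows, chr17:29093519-29093768, held 0. Some genes have more than 1 window, so these counts of genes cannot be set directly against the share of windows. The windows of Bax and Cdkn1a printed here, with 1 decamer and with 2, were chosen after their values were seen. Cdkn1a, a brake on the cell cycle, fell like Bax from culture to tumor in both models. Its log2 fold changes were -0.96 ± 0.11 in CT-26 and -1.15 ± 0.05 in Colon 26. Whether p53 had a part in either fall was not tested. The window of Bax is chr7:45466899-45467148 on the minus strand and that of Cdkn1a chr17:29090729-29090978 on the plus strand, both 5′ to 3′ and ending at the last base before the start, with decamers in capitals.
Bax: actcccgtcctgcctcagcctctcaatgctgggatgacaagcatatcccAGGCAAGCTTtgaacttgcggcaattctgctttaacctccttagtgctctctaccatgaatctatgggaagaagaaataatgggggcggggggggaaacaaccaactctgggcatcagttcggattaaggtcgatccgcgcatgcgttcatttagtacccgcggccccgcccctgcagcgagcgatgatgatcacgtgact
Cdkn1a: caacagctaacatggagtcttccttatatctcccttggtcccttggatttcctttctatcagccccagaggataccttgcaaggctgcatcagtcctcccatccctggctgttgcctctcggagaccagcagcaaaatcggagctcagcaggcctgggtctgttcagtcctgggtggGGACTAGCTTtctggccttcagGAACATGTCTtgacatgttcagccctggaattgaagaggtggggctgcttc
The decamer of Bax starts 201 bases before the start. Those of Cdkn1a start 73 and 51 bases before the start that its printed window leads to. None of 3 windows of Bbc3, the member that fell most, holds these letters, which says nothing of sites elsewhere in the gene. A match describes the letters of a window and is no measured binding site.

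Between 100 and 800 mm3 few members passed the test. In CT-26 no member was past the test and no gene of 15298 was (0%). At an unadjusted p under 0.05 there were 2 members and 1610 genes, and DESeq2 called 177 genes and no member. With all 30 libraries in one fit 613 genes and 2 members, Bcl2l1 and Bbc3, were past the test. Their log2 fold changes were -0.41 ± 0.13 and 0.37 ± 0.17 in the fit of the 8 libraries alone.

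In Colon 26 2 members were past the test, 1 up and 1 down, where 6.67% of all genes were (3.06% up and 3.62% down), and neither was DE (1.33%). Bcl2l1 fell from 231, 212, 222 and 183 CPM at 100 mm3 to 98.7, 119, 132 and 107 CPM at 800 mm3, a log2 fold change of -0.91 ± 0.10 (edgeR adjusted p = 0.0046). Its 400 mm3 tumors had 136, 92.5, 99.5 and 106 CPM. The 100 mm3 tumors were above all larger ones, and the 400 and 800 mm3 tumors overlapped. Of genes with a mean count of at least 10, 13.2% did not overlap between 100 and 800 mm3 in Colon 26, and 5.11% in CT-26.

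Bcl2l11 rose over the same step from 32.4, 39.5, 39.0 and 35.8 CPM to 59.3, 41.2, 46.1 and 53.6 CPM (log2 fold change 0.44 ± 0.11, edgeR adjusted p = 0.071). The groups did not overlap, yet the call was lost without any 100 mm3 tumor and without 800 mm3 replicate 1, 3 or 4, where the adjusted p ran from 0.10 to 0.17. The change of Bcl2l1 was past the test in all of those fits. Whether growth acted otherwise in the 2 models was tested directly: no member passed (0.0801% of all 16238 genes did). At an unadjusted p under 0.05 there were 1 of 10 members and 2031 of 16238 genes, and DESeq2 called 431 genes and no member. For Bcl2l1 the difference was -0.49 ± 0.17 (edgeR adjusted p = 0.26).

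Skeletal muscle RNA moved with tumor size in Colon 26 and stands beside the fall of Bcl2l1. The 5 muscle markers summed to 188, 1230, 116 and 236 CPM in the 100 mm3 tumors, to 2445, 5.35, 7.26 and 2.57 CPM in the 400 mm3 tumors and to 2.33 to 2.98 CPM in the 800 mm3 tumors, and cultures had 1.71 to 2.02 CPM. All Colon 26 tumors of 100 mm3 held muscle RNA, so none could be left out. Cultures hold no host tissue and so cannot show the part of muscle RNA. In those of Colon 26, Bcl2l1 was at 160.1 to 168 CPM, above all 8 larger tumors. The 400 mm3 tumor with 2445 CPM of muscle markers had 136 CPM of Bcl2l1, the highest of its group and below every 100 mm3 tumor. In the CT-26 tumors of 100 mm3, replicates 1 to 4 had 1.27, 229, 30.7 and 475 CPM of muscle markers beside 248, 187, 167 and 236 CPM of Bcl2l1.

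Without the 2 tumors of 400 mm3 with Acta1, the actin of skeletal muscle, over 30 CPM, 5 members were past the test between models in place of 4, with 8825 of 15238 genes past it in place of 7963 of 15241, and Bcl2l1 had a log2 fold change of -0.53 (edgeR adjusted p = 0.0012). Leaving out 2 such CT-26 tumors of 100 mm3 gave 8 members in place of 7 against culture, with 11499 of 15306 genes in place of 11601 of 15370. The part of muscle RNA in the fall of Bcl2l1 was not tested.

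**Figure D4:**
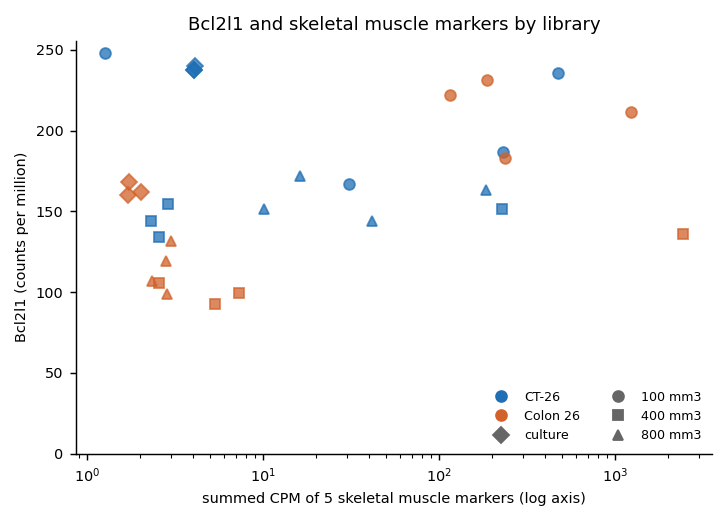
Bcl2l1 in CPM (y axis, from 0) against the summed CPM of 5 skeletal muscle markers (x axis, log scale) in 30 libraries, by model (color) and group (symbol). The 4 Colon 26 tumors of 100 mm3 lie at 116 CPM of muscle markers or more and the 4 of 800 mm3 at 2.98 CPM or less, while the 3 CT-26 cultures reach 237 to 240.1 CPM of Bcl2l1 with about 4 CPM of muscle markers.

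Levels per length give the balance among these members, as a description. Of the summed FPKM of Mcl1, Bcl2l1 and Bcl2, Mcl1 made up 52.1% ± 0.266 (SD, n = 3) in CT-26 culture and 60.1% ± 2.84, 66.9% ± 1.57 and 65.4% ± 1.21 (SD, n = 4) at 100, 400 and 800 mm3. In Colon 26 it made up 53.4% ± 0.445 (n = 3) in culture and 62.0% ± 1.42, 72.2% ± 3.58 and 72.9% ± 1.91 (n = 4). Every tumor was above every culture. In both models the tumors of 400 and 800 mm3 were all above the 100 mm3 tumors of either model. Their shares were 64.2% to 68.7% in CT-26 and 67.0% to 75.1% in Colon 26. Bcl2l1 supplied most of the rest, 44.6% ± 0.360 in CT-26 culture and 24.6% ± 2.08 in Colon 26 at 800 mm3.

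The ratio of Bax to Bcl2 in FPKM was 20.4 ± 1.70 (SD) in CT-26 culture and 32.5 ± 2.15 in Colon 26 culture, where the groups did not overlap. At 100 mm3 it was 18.7 ± 3.98 and 26.9 ± 1.58, again without overlap. At 400 mm3 it was 15.9 ± 1.69 and 21.3 ± 8.09, and at 800 mm3 19.2 ± 3.80 and 21.6 ± 3.72, and the models overlapped. The 33.1 of the first 400 mm3 tumor of Colon 26, the one with 2445 CPM of skeletal muscle markers, made most of the spread there. The part of muscle RNA in this value was not tested. With counts divided by the exon length of an annotation in place of FPKM the ratios were lower and the Mcl1 shares higher in every group.

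**Figure D5:**
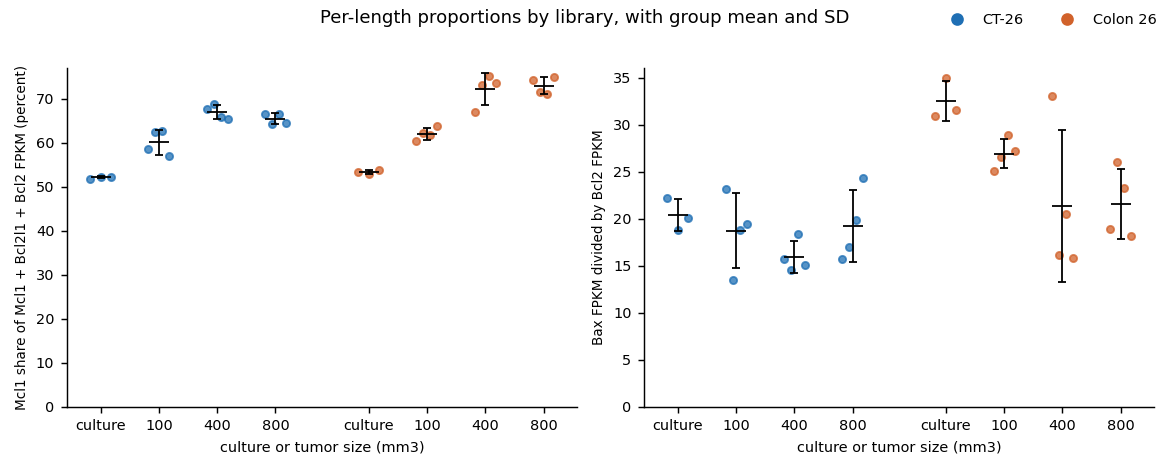
Mcl1 share of the summed FPKM of Mcl1, Bcl2l1 and Bcl2 in percent (left y axis) and Bax FPKM divided by Bcl2 FPKM (right y axis), by library (points) with group mean and SD, against culture or tumor size (x axis). The Mcl1 share is 51.8% to 53.8% in the 6 cultures and 56.9% or more in the 24 tumors.

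The wider family and the neighbouring steps of the pathway were read by list. Counts in these lists and the p53 list stand beside the shares of all genes past the test. They were 82.6% in culture and 56.5%, 52.2% and 59.4% between models at 100, 400 and 800 mm3. From culture to tumor they were 75.5% in CT-26 and 78.9% in Colon 26, and in Colon 26 growth 6.67%. In the same order the shares DE were 22.9%, 13.2%, 14.3%, 14.1%, 32.2%, 26.9% and 1.33%. Among 15 further Bcl2 family genes, 8 were tested in culture, with 3 higher and 2 lower in Colon 26, and Bmf, a BH3-only gene, was DE with 6.31 to 7.63 CPM in Colon 26 and 0.891 to 1.29 CPM in CT-26 (log2 fold change 2.71 ± 0.15, edgeR adjusted p = 8.0e-11). Bcl2l15 was DE the other way (-1.03 ± 0.22), at 1.97 CPM or less. Between models 4, 2 and 5 of them passed at 100, 400 and 800 mm3, and Bok, an effector-like gene, was DE at 800 mm3 with 36.1 to 51.9 CPM in Colon 26 and 61.4 to 122 CPM in CT-26 (-1.15 ± 0.19).

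From culture to 100 mm3 tumors 7 rose and 4 fell of 12 tested in CT-26, and 9 rose and 4 fell of 13 in Colon 26. Bcl2a1a, Bcl2a1b and Bcl2a1d, protectors known from leukocytes, were at the floor in all cultures and higher in CT-26 tumors by at least 83.9-fold, 148-fold and 138-fold in that order. In Colon 26 tumors the bounds were 146-fold, 272-fold and 234-fold. They are near-identical copies whose counts may be shared among them. Bcl2l14 was also at the floor in cultures and at least 4.31-fold higher in CT-26 tumors, and in Colon 26 Bik, a BH3-only gene, was at least 5.24-fold higher. List medians on the log2 scale with genes at the floor set to their bound were 1.17 in CT-26 and 0.92 in Colon 26. In Colon 26 no gene of the list rose and 1 fell from 100 to 800 mm3.

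All 13 apoptosome and caspase genes were tested in culture, where 5 were higher and 6 lower in Colon 26. The DE ones were Dffb (log2 fold change 1.38 ± 0.13) and its inhibitor Dffa (-1.22 ± 0.07), which form the nuclease that cuts DNA in dying cells, Diablo (-1.19 ± 0.04), which frees caspases from their inhibitors, and Aifm1 (-1.12 ± 0.03), a mitochondrial flavoprotein. In tumors 3 were higher and 5 lower at 100 mm3, 4 and 5 at 400 mm3 and 3 and 6 at 800 mm3, with Dffb DE at 400 mm3 and at 800 mm3 (1.29 at the latter). From culture to 100 mm3 tumors 5 rose and 6 fell in CT-26, and 7 rose and 3 fell in Colon 26 with none DE in the latter.

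Of 7 inhibitors of apoptosis proteins 3 were higher and 4 lower in Colon 26 culture. Birc5 (survivin) was DE with 67.6 to 71.8 CPM against 26.6 to 28.5 CPM (log2 fold change 1.40 ± 0.04), Birc3 with 1.05 ± 0.21, Naip2 with -1.54 ± 0.04 and Naip5 with -1.04 ± 0.09, the last pair being close copies. Xiap, a direct caspase inhibitor named here after its values were seen, was lower in Colon 26 in culture and at all 3 sizes, with log2 fold changes of -0.87, -0.77, -0.78 and -0.82. From culture to 100 mm3 tumors 2 rose and 2 fell in CT-26, with Birc3 (3.94 ± 0.33) and Birc5 (2.10 ± 0.15) DE, and 6 rose and 1 fell in Colon 26, with Birc3 (2.75 ± 0.16) and Naip5 (1.51 ± 0.11) DE.

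In the death receptor arm 3 of 8 tested genes were higher and 5 lower in Colon 26 culture. Fas, a death receptor, was DE with 2.79 to 3.71 CPM against 0.543 to 0.978 CPM (log2 fold change 2.10 ± 0.22). Cflar, which blocks caspase-8 at the receptor, was DE with 125 to 134 CPM against 349.7 to 366 CPM (-1.42 ± 0.03). In tumors 2 were higher and 6 lower in Colon 26 at 100 mm3, 2 and 7 at 400 mm3 and 2 and 6 at 800 mm3. Cflar was DE at each size (-1.21, -1.69 and -1.31), as was Fasl (-2.21, -1.55 and -1.28), the ligand made by T and NK cells. At 100 mm3 NK cell markers summed to 29.1 to 116 CPM in CT-26 and 5.62 to 21.6 CPM in Colon 26. T cell markers overlapped, at 8.24 to 44.3 CPM in CT-26 and 3.68 to 17.9 CPM in Colon 26. The part of these cells in the difference of Fasl was not tested. Tnfsf10 (TRAIL) was DE at 100 and 400 mm3 (-1.89 and -1.78).

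From culture to 100 mm3 tumors 6 genes of this arm rose and 2 fell in each model. Fasl was at the floor in all cultures and at least 18.04-fold higher in CT-26 tumors and 6.42-fold in Colon 26 tumors. Tnfsf10 was at the floor in CT-26 cultures and at least 108-fold higher in tumors, and rose in Colon 26 with a log2 fold change of 4.93. Fas (log2 fold change 2.89 ± 0.41) and Casp8 (1.03 ± 0.08) were also DE in CT-26. In the p53 list between models at 100, 400 and 800 mm3, 4, 6 and 5 genes were higher and 3 lower at each size, with Ccng1 (1.13, 1.15 and 1.15) and Gdf15 (3.70, 3.5001 and 3.26) DE.

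For the 3 members whose group means ranged widest, Pmaip1 over 7.98, Bbc3 over 1.64 and Bcl2l1 over 1.15 log2 CPM, the genes most alike over the 30 libraries were sought among 17139. Libraries share line and culture, so these are descriptions of shared group patterns. Pmaip1 was followed by Ntng2 (Pearson r = 0.989), 6530402F18Rik (0.987) and Lysmd2 (0.986). Ntng2 was at 0 in all CT-26 cultures, at 9.22 ± 0.311 CPM (SD) in Colon 26 cultures, at 0.704 to 0.812 CPM on average in CT-26 tumors and at 10.2 to 11.7 CPM in Colon 26 tumors. Bbc3 was followed by Ccdc47 (0.976), Osbpl2 (0.970) and Mttp (0.968), which like it were highest in the 6 cultures: Osbpl2 had 271 ± 2.25 CPM in CT-26 culture and 48.9 ± 5.65 CPM at 100 mm3. For Bcl2l1 the closest were Hhipl1 (0.795), Ap1s1 (0.776) and Nubp2 (0.766), a looser match.

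The order of group means gives a last view of the members. Bcl2l1 ran from 108 ± 19.0 CPM (SD, n = 4) in 400 mm3 Colon 26 tumors to 238 ± 1.61 CPM (n = 3) in CT-26 culture, and neighbours in that order overlapped except between 800 mm3 Colon 26 and 400 mm3 CT-26 tumors and below CT-26 culture. Mcl1 was lowest in Colon 26 culture (278 ± 8.58 CPM), then in CT-26 culture (383 ± 2.10 CPM), and the 6 tumor groups, at 432 to 500.3 CPM on average, each overlapped the next. Bid had all 4 Colon 26 groups, 29.6 to 36.8 CPM on average, below all 4 CT-26 groups, 53.9 to 65.1 CPM. Bcl2l11 was highest on average in 400 mm3 CT-26 tumors, with 56.7, 59.9, 62.6 and 37.4 CPM, but this range overlapped that of every other tumor group. Bak1 had the narrowest range, from 67.3 ± 2.32 CPM in CT-26 culture to 101 ± 9.34 CPM in 100 mm3 Colon 26 tumors, and every group overlapped the next.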

How the data were processed

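PolyA RNA of 30 libraries was sequenced as paired ends after TruSeq preparation. The authors deposited estimated counts per gene, of which 22.7% of non-zero values were not whole, and FPKM per gene, both made in Array Studio with Ensembl gene models. The submitters' notes also name DESeq2 1.24.0. The aligner and the strand setting are not given in the sources used here. Groups came from the labels, and no column of values was left unused (0). Tumors were taken as untreated.

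Here estimated counts were rounded to whole numbers and tested with edgeR 4.0.16 (R 4.3.3) by quasi-likelihood with TMM scaling (factors 0.927 to 1.05), filterByExpr and the libraries of the comparison only. Changes between models were tested as an interaction. Adjustment was by Benjamini-Hochberg over all genes tested, and SE is the log2 fold change over the root of F. The members, the other lists and the tests were chosen with earlier results of these data known. All members are named, and from each other list at most 4 DE genes with the largest change, with exceptions stated. Genes most alike were taken by Pearson r of log2 CPM for the 3 members of widest range. Alternatives were limma 3.58.1 on log2(FPKM + 1) and log2(FPKM + 0.1), DESeq2 1.42.0, other scalings, filters, thresholds and sample sets, thinned counts, and leaving out each library. The script was tested on simulated data. The 42 pairs of replicates differed beyond sampling noise (chi-square per degree of freedom 2.91 to 73.9). Totals limit precision for genes under a floor of 3 counts per library, which covers counting error only. A result for 1 gene of the apoptosome and caspase list is not reported here.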

Additional observations from a re-analysis of the deposited data

Results flagged for a closer look

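Each member was read in each group of 4 tumors, so the 60 sets of values share tumors and are not independent. In 3 of the 60 sets 1 value stood far from the other 3 (Dixon's criterion), where chance gives about 1 in 20 sets. These were Bcl2 at 46.2 CPM, the highest of the 100 mm3 CT-26 tumors, Bcl2l11 at 49.0 CPM, the highest of the 800 mm3 CT-26 tumors, and Bbc3 at 14.3 CPM, the highest of the 100 mm3 Colon 26 tumors.

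The change from culture to 100 mm3 tumors differed between the models for 8 members in edgeR's test of the difference. The log2 difference, Colon 26 minus CT-26, was 0.51 for Bcl2l1, 0.52 for Mcl1, -0.33 for Bax, -0.44 for Bak1, 0.47 for Bcl2l11, 0.40 for Bbc3 and -0.50 for Bad. For Pmaip1 the fitted value was -5.17, which depends on CT-26 cultures of 1 or 2 counts and is no bound.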

How the results depend on the processing

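No log2 fold change of a member past the test reversed under any alternative (824 kept their side of the threshold and 43 did not). With at least 10 counts in every library Pmaip1 was not tested against CT-26 cultures, so 0 members were DE in culture, 1 in CT-26 from culture to tumor and 0 in the difference of that step between models. On log2(FPKM + 1) 1 and 0 members were DE in the last 2. In CT-26 growth, 2 members passed with all 30 libraries in one fit. In Colon 26 growth 1 passed at an adjusted p of 0.05 and 1 with all 30 libraries, and 1 to 3 with a library left out. With counts per exon length Bax to Bcl2 was 14.5, 13.5, 11.4 and 13.9 in CT-26 culture and 100, 400 and 800 mm3 tumors and 23.2, 19.6 and 16.0 in Colon 26 culture, 100 and 800 mm3 tumors, and the Mcl1 share was 66.1%, 73.1%, 78.3% and 77.2% in CT-26 and 67.2%, 74.9%, 82.1% and 82.8% in Colon 26.

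Over all genes, DE counts fell with at least 10 counts in every library to 1996 in culture, 1356 and 1433 between models at 100 and 400 mm3, 2527 and 1818 from culture to tumor in CT-26 and Colon 26, 90 in Colon 26 growth and 1487 in the difference of the culture step. On log2(FPKM + 1) they fell to 1519 in culture, to 861, 951 and 914 between models at 100, 400 and 800 mm3, to 2648 and 1946 from culture to tumor, to 62 in Colon 26 growth and to 1255 in the difference of the culture step. With no filter 3469 were DE at 800 mm3. Genes past the test in CT-26 growth were 613 with all libraries, 177 in DESeq2 and 1 in limma, and in Colon 26 growth 377 at 0.05, 403 with all libraries and 1601 in DESeq2, which added Bak1 to the members (3). DE counts there were 100 with all libraries and 309 in DESeq2, and in CT-26 growth 92, 39 and, on log2(FPKM + 0.1), 1. For the difference in growth between models 13 genes were past the test, and 1 to 431 under the alternatives, among them 426 without CT-26 replicate 1 of 800 mm3, 202 and 71 without CT-26 replicates 1 and 2 of 100 mm3, and 431 in DESeq2. With all libraries 56.1% of the calls in Colon 26 growth were up, against 45.8% in the fit of its own libraries. DESeq2, run on unfiltered genes, moved the median log2 fold change of all genes from 0.01 to -0.10 in culture and from 0.05 to 0.19 in Colon 26 from culture to tumor, and from -0.02 to 0.14 in the difference of that step. The cause of these shifts was not tested. Growth to 400 mm3 was not tested. No paired analysis was possible because the labels give no replicate numbers shared by the groups.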
